A study of Mus musculus with 18 samples.

Results

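The 6 libraries described here are the heavy and light polysome fractions of 4T1 cells in which Dap5 was knocked down, out of 18 libraries in the study. They were taken by their sample titles, 3 as shDap5 heavy and 3 as shDap5 light. 4T1 is a mouse mammary carcinoma line of BALB/c origin often used to study triple-negative breast cancer in mice. The cells carried a hairpin against Dap5 (shDap5) or a non-silencing hairpin (NSi), and cells of both arms received doxycycline at 2 µg/ml for 6 days, which switches the hairpin on. Lysates were run on sucrose gradients, fractions were combined into a heavy and a light pool, and polyadenylated RNA was sequenced with stranded libraries. The comparison is shDap5 heavy against shDap5 light, with NSi heavy against NSi light (3 libraries each) beside it and the inputs of both arms (3 libraries each) in the same fit. The labels name neither the hairpin's sequence nor whether the cells were 1 clone or a pool, nor where the gradient was divided, and they do not say that the 3 libraries of a group are from different cultures. The p-values rest on the spread among the libraries, part of which may be technical. In such bulk samples fewer cells of a type and less RNA per cell cannot be told apart.

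An mRNA that is being translated carries several ribosomes at a time, and the more it carries the deeper it sediments in a sucrose gradient. Light polysomes hold mRNAs with few ribosomes and heavy polysomes hold mRNAs with many. How many ribosomes fit depends on the length of the coding sequence, on how often ribosomes start and on how fast they move. DAP5, the product of Eif4g2, resembles the C-terminal part of the scaffold factor eIF4G but lacks the site that binds the cap-binding protein eIF4E, and it is known for helping ribosomes start on selected mRNAs without eIF4E. Levels below are in CPM, counts scaled to a common library total, so each is a level within its own fraction. A difference between heavy and light is thus a difference in the share of that fraction's mRNA, not in the amount of mRNA on the gradient. The ratio of heavy over light does not show how much of an mRNA is on polysomes at all. In the level of either fraction alone, a change in ribosomes per mRNA cannot be told apart from a change in that amount.

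Total counts were 38237669 to 71331978 in the shDap5 heavy libraries and 30940897 to 36885734 in the shDap5 light libraries. Of 35976 gene symbols, 15072 had enough counts to be tested. The heavy library numbered 2 stood apart from the other libraries. Together, 10 loci, among them Cdk8, Lars2 and Mir6236, took 2.15% of its counts, against 0.033% and 0.0805% in heavy 1 and 3 and 0.0388% to 0.1495% in the light libraries. Cdk8, which encodes a kinase of the Mediator complex, had 106, 8076 and 300.6 CPM in heavy, against 132, 217 and 573 CPM in light. The 7SK RNA gene Rn7sk had 0.613, 15.8 and 0.496 CPM in heavy, against 1.09, 0.395 and 1.37 CPM in light. In both genes heavy 2 alone was high, and the fitted log2 differences of 3.20 and 2.57 were -0.59 and -0.77 without it. With a replicate block within each arm they were 1.67 (edgeR, adjusted p = 0.392) and 1.26 (adjusted p = 0.399), so neither call was kept. The part of these reads in other values of heavy 2 was not tested, so counts that move by more than 1.5 times without it are given both ways. Markers of other cell types were checked in the same libraries. None of 8 lymphocyte and 6 red cell markers had enough counts to be tested, and the 5 endothelial markers tested summed to 0.962 to 1.56 CPM in heavy and 1.58 to 3.89 CPM in light. The 5 macrophage markers tested summed to 88.6 to 142 CPM in heavy and 55.4 to 105 CPM in light, nearly all of it Cd68, Cd14 and Csf1r, while Lyz2 and Mrc1 stayed under 1 CPM on average. Csf1r, the CSF1 receptor, was higher in heavy by 1.28 (SE 0.26, adjusted p = 0.000824). The 3 fibroblast markers tested summed to 13.3 to 24.5 CPM in heavy and 12.9 to 14.3 CPM in light, nearly all of it Pdgfra. Their part in other results was not tested.

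**Figure D1:**
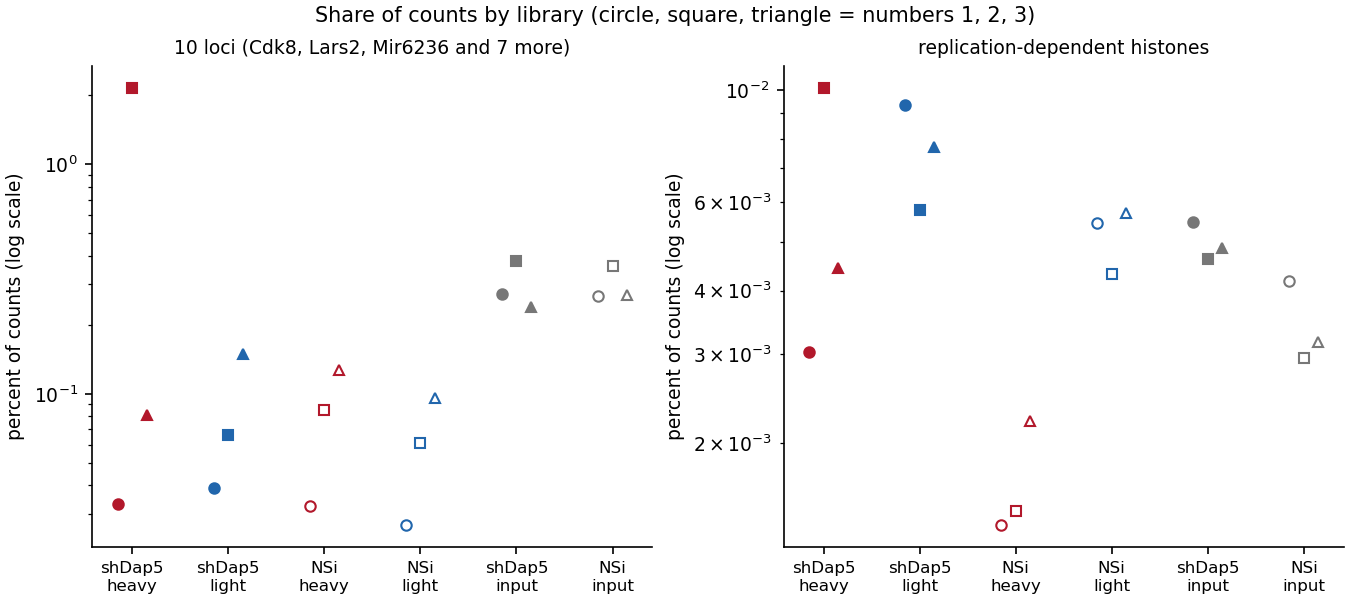
Percent of each library's counts (log scale) taken by 10 loci (left) and by replication-dependent histone genes (right), by group, with numbers 1, 2 and 3 as circles, squares and triangles and NSi libraries as open symbols. The square of shDap5 heavy stands at 2.15% for the 10 loci, above all other libraries, and has the largest histone share of the 6 shDap5 polysome libraries.

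Eif4g2, the target of the hairpin, was found in both fractions of knockdown cells. It had 358, 277 and 222 CPM in heavy, against 429, 311 and 274 CPM in light. The fractions overlap, and the log2 difference of -0.24 (SE 0.25) did not pass the test (edgeR quasi-likelihood, adjusted p = 0.457). In NSi cells it had 864, 822 and 659.8 CPM in heavy, against 1315, 983 and 769 CPM in light, so each shDap5 polysome library lay below each NSi one. The heavy-to-light difference of NSi cells was -0.39, and the difference between the arms was 0.14 (SE 0.36, unadjusted p = 0.694). Within shDap5 libraries of the same number the log2 shifts of Eif4g2 were -0.26, -0.17 and -0.30, so heavy lay below light in each pair. The main fit does not use this pairing, and at its spread the difference between light and heavy did not pass.

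In knockdown cells a large share of the mRNAs was unevenly divided between heavy and light polysomes. At an adjusted p under 0.05 (edgeR quasi-likelihood test over 15072 genes, hereafter called), 6706 genes (44.5%) differed, of which 3666 (24.3%) were higher in heavy and 3040 (20.2%) were lower. Of these, 1273 and 1854 differed by at least 2-fold. The 3 heavy libraries all lay above the 3 light ones in 3863 genes (25.6%) and all below them in 3418 (22.7%). Within libraries of the same number, 3641 of the 3666 genes called higher were higher in all 3 pairs, and 3027 of the 3040 called lower were lower in all 3. The calls were made on these same libraries, so this describes the called genes and is no separate support for them. The balance of the calls depends on scaling: 54.7% of calls were higher in heavy with TMM factors, 49.2% with DESeq2, 36.2% with upper-quartile factors and 38.6% with total counts alone, and the last 2 move the median of all genes by -0.23 and -0.20 on the log2 scale. Differences below are relative to TMM scaling, under which the median gene stood at 0.01. Counts called in the gene lists below are to be read beside the shares of all genes, 24.3% higher and 20.2% lower. Most genes named from a list were taken by p-value in this same comparison. A lack of overlap between their fractions follows largely from that choice.

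The 10 largest rises were in genes of varied function, with coding sequences of at least 503 codons. Pfkl, the liver-type phosphofructokinase of glycolysis, had 1209, 874 and 863 CPM in heavy, against 222, 159 and 192 CPM in light, a log2 difference of 2.36 (SE 0.27, adjusted p = 5.89e-06). Each heavy library stood far above any light one. Mvp, the main protein of vault particles, had 160.2, 215 and 229 CPM in heavy, against 33.4, 44.3 and 46.3 CPM in light, a difference of 2.29 (SE 0.21, adjusted p = 1.1e-06). Cad, which starts pyrimidine synthesis, had 312, 404 and 254 CPM in heavy, against 77.2, 75.7 and 53.1 CPM in light, a difference of 2.23 (SE 0.24, adjusted p = 3.08e-06). Anxa11, a calcium-dependent membrane-binding annexin, differed by 2.23, and Dctn1, the large dynactin subunit that links dynein to its cargo, by 2.19. The other 5 were the matrix genes Fbln2 (2.17) and Col18a1 (2.14), the ribosome-assembly gene Tbl3 (2.11), the secreted Lgals3bp (2.10) and the actin-severing Gsn (2.10). Gsn was among the steadiest, with 639, 653 and 652 CPM in heavy, against 143, 147 and 163 CPM in light. In these 10 genes the heavy and light libraries did not overlap, which the rule for naming them required, and their coding sequences ran from 503 codons in Anxa11 to 2225 in Cad.

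The largest falls were in mRNAs with very short coding sequences and in hosts of small nucleolar RNAs. Tmsb4x, which encodes the actin-sequestering peptide thymosin beta 4, had 168, 85.7 and 173 CPM in heavy, against 672, 423 and 1167 CPM in light, a log2 difference of -2.41 (SE 0.38, adjusted p = 0.000107). Rpl41, which encodes the smallest ribosomal protein, had 363, 198 and 407 CPM in heavy, against 1410.4, 1001 and 2475 CPM in light, a difference of -2.34 (SE 0.37, adjusted p = 0.000113). Light 3 was the highest library for both genes and heavy 2 the lowest. Rpl39, another very small ribosomal protein, differed by -2.27, Usmg5, a small subunit of ATP synthase, by -2.40, and Myeov2, a small partner of the COP9 signalosome, by -2.38. Lst1 (-2.45), Toporsos (-2.43), the ribosomal retrogene Rps27rt (-2.38) and the snoRNA hosts Snhg15 (-2.26) and Snhg12 (-2.21) completed the 10. Rps27rt shares most of its sequence with Rps27, so its reads are uncertain.

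The coding sequences of 4 of the short mRNAs that were low in heavy polysomes are printed to show their length. They are from GENCODE M21 (GRCm38), 5′ to 3′, with the start and stop codons in capitals, and hold 25 codons before the stop in Rpl41 (chromosome 10), 37 in Ost4 (chromosome 5), 44 in Tmsb4x (chromosome X) and 51 in Rpl39 (chromosome X). Ost4, chosen after its values were seen, encodes a small subunit of oligosaccharyltransferase.
Rpl41: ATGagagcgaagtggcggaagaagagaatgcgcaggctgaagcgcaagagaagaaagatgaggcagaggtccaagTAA
Ost4: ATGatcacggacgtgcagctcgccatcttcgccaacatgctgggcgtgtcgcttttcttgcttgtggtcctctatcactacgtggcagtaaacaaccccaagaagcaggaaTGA
Tmsb4x: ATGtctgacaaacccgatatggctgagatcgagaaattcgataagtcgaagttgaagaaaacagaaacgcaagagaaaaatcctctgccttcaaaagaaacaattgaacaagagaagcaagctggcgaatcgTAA
Rpl39: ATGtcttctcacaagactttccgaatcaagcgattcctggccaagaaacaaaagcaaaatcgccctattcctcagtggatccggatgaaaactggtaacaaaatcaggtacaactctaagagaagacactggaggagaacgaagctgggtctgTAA
Ost4 had 44.6, 25.4 and 75.3 CPM in heavy, against 170.4, 121 and 274 CPM in light, a log2 difference of -1.96 (SE 0.37, adjusted p = 0.000424). As in Rpl41 and Tmsb4x, each of its heavy libraries lay below each light one. The whole Rpl41 frame is 78 bases with its stop codon and that of Rpl39 is 156.

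**Figure D2:**
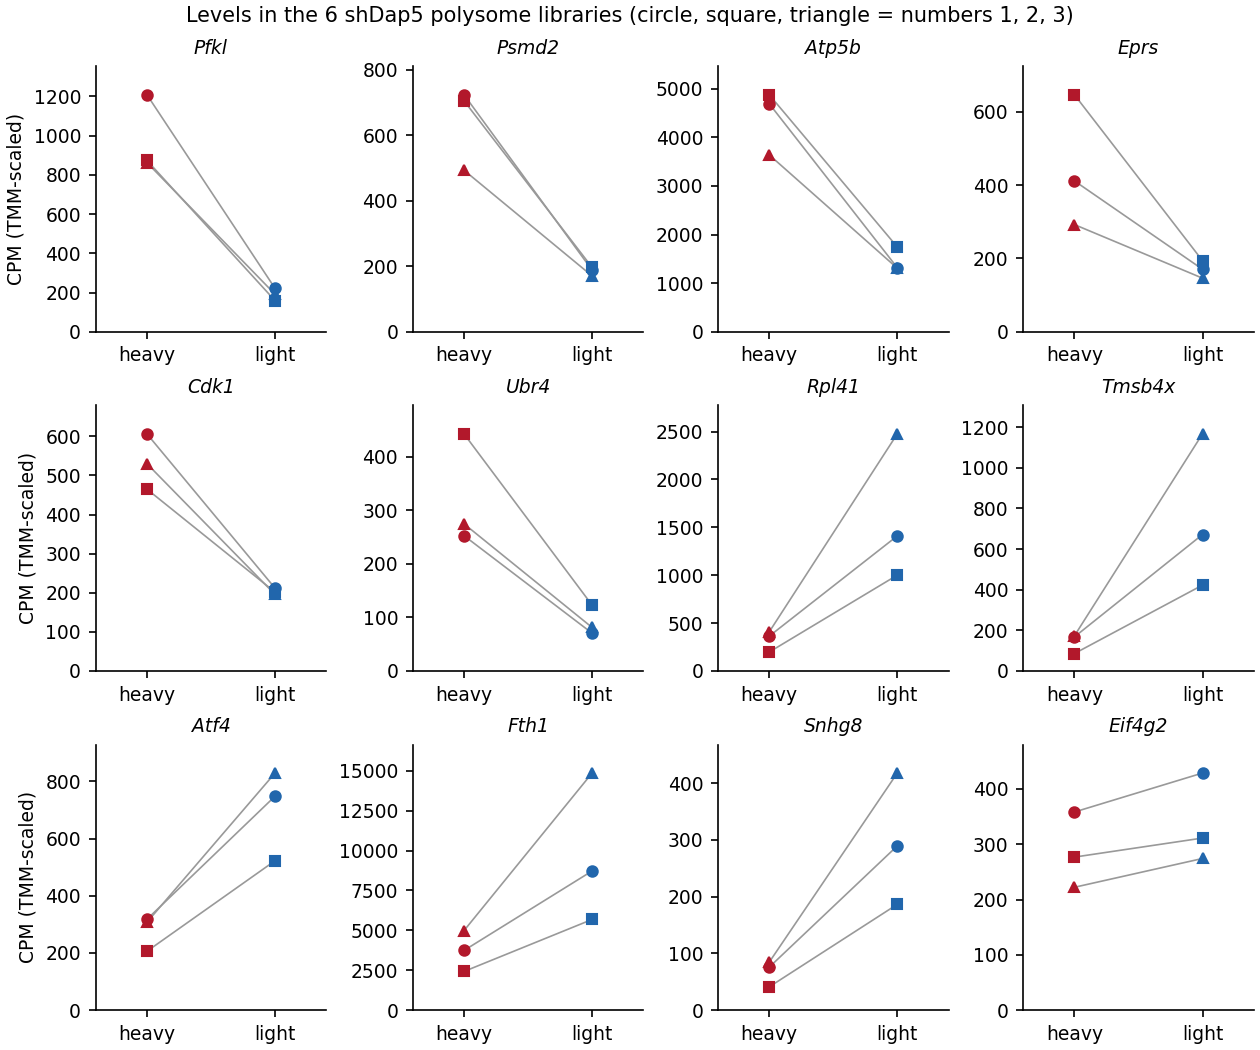
Level (TMM-scaled CPM, axis from 0) of 12 genes in the shDap5 heavy libraries (left in each panel) and light libraries (right), with libraries of the same number joined by a line. In Pfkl, Psmd2, Atp5b, Eprs, Cdk1 and Ubr4 the 3 heavy libraries lie above the 3 light, in Rpl41, Tmsb4x, Atf4, Fth1 and Snhg8 they lie below, and in Eif4g2 the fractions overlap.

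Coding length ordered the whole set of genes. Among 898 tested genes with up to 150 codons the median log2 difference was -1.0, and 560 were called lower against 4 called higher. The median was -0.14 for 2537 genes with over 150 and up to 300 codons, 0.20 for 4952 genes with up to 600, 0.37 for 3288 genes with up to 1200, and 0.47 for 1183 genes with more than 1200. In the longest class 464 genes were called higher and 48 lower. As a share of counts, genes with up to 150 codons took 6.77%, 5.03% and 9.25% of the heavy libraries, against 15.4%, 13.1% and 15.4% of the light libraries. Genes with more than 1200 codons took 7.71%, 10.9% and 7.05% in heavy, against 5.39%, 7.03% and 5.04% in light. Both shares were apart between the fractions in all 3 pairs of the same number, and the ranges of the longest class nearly touched. Spearman's rank correlation between coding length and the log2 difference was 0.37 across 12858 genes in shDap5 and 0.39 in NSi, as a description, since the genes share the same libraries.

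Other features of the mRNA ordered the genes far less. The same rank correlation was 0.01 for the length of the 3′ UTR, -0.02 for that of the 5′ UTR and 0.08 for the GC content of the coding sequence, over the same 12858 genes. Length classes kept their order within GC classes: with a coding GC of up to 45% the median was -1.06 for genes with up to 150 codons (n = 106) and 0.16 for genes with more than 1200 (n = 161), and with a GC over 60% it was -0.78 (n = 144) and 0.61 (n = 100). The upper end of the trend was lower without heavy 2, which had the largest share of long mRNAs among the shDap5 polysome libraries. Without it the median was 0.28 for genes with more than 1200 codons and 0.27 for over 600 and up to 1200, while it was -0.84 for up to 150. That fit keeps light 2, which had the largest such share of the light libraries (7.03%). Within libraries of numbers 1, 2 and 3 the medians for more than 1200 codons were 0.42, 0.52 and 0.25.

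**Figure D3:**
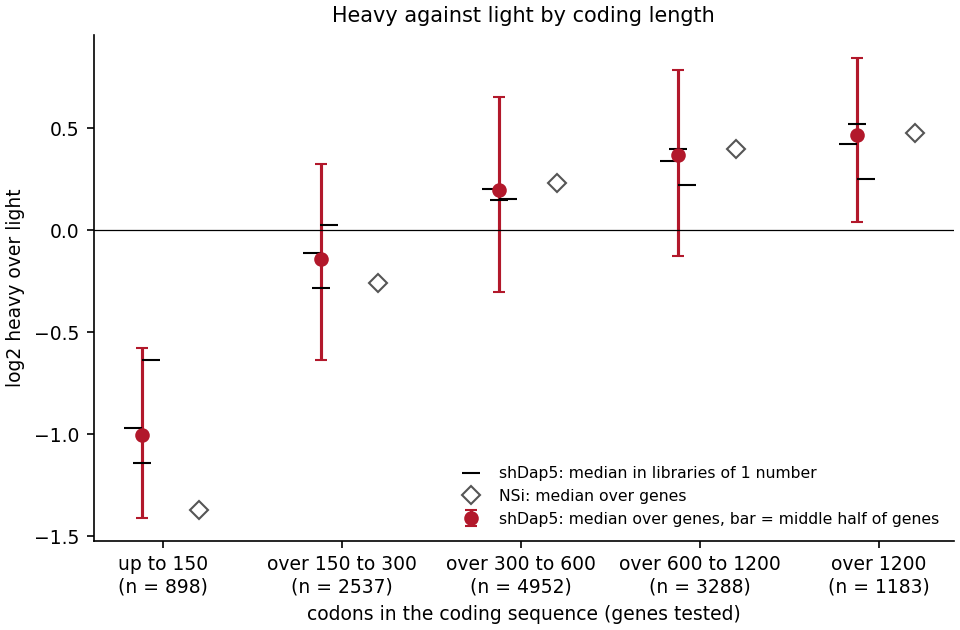
Median log2 difference of heavy over light (points) by number of codons in the coding sequence, with bars for the interquartile range in shDap5, black ticks for the medians in shDap5 libraries of 1 number, and open diamonds for the NSi medians. In shDap5 the median is -1.0 for the shortest class and 0.47 for the longest, and the order of the classes is the same in NSi.

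Some mRNAs went against their length, and those named here were chosen after their values were seen. Of the 898 genes with up to 150 codons, 4 were called higher. Eif4ebp3 (101 codons), which encodes a repressor of the cap-binding protein, had 32.5, 26.6 and 41.1 CPM in heavy, against 17.5, 13.6 and 24 CPM in light, a log2 difference of 0.86 (SE 0.25, adjusted p = 0.00896), and Acot13 (140 codons), a thioesterase of mitochondria, differed by 0.54 (SE 0.21, adjusted p = 0.043). The call of Eif4ebp3 was lost without number 1 (adjusted p = 0.0521) and that of Acot13 without number 1 (0.106) or number 3 (0.309), among others. Among long mRNAs that were low in heavy, Tet2 (1912 codons), which encodes an enzyme that oxidises 5-methylcytosine, had 3.53, 4.42 and 2.11 CPM in heavy, against 8.57, 10.8 and 8.23 CPM in light, a difference of -1.46 (SE 0.25, adjusted p = 0.00017). Pcf11 (1553 codons), a factor of mRNA 3′ end formation, differed by -0.77 (SE 0.16, adjusted p = 0.000902), Nktr (1453 codons), a cyclophilin-related protein, by -0.92 (SE 0.19, adjusted p = 0.000908), and Camta1 (1682 codons), a transcription factor, by -0.90 (SE 0.22, adjusted p = 0.00327). The same 4 genes stood at -1.77, -0.88, -1.08 and -1.15 in NSi cells.

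Genes annotated as noncoding were mostly lower in heavy polysomes. Of 922 tested genes of GENCODE's long noncoding types, 493 (53.5%) were called lower in heavy and 5 higher, with a median of -1.26. The types were matched by symbol and are not free of coding genes: the 5 called higher include Cct6a, a chaperonin subunit, and Ifi30, a lysosomal reductase, with 9130221H12Rik, D430020J02Rik and Gm15564, all named after their values were seen. Protein-coding genes numbered 12885, of which 3625 were called higher and 2071 lower. In a list of 26 tested noncoding RNAs the median was -1.89 and 21 were called lower. Snhg8, a host of small nucleolar RNAs, had 75.6, 41 and 84.4 CPM in heavy, against 289, 186 and 418 CPM in light, a log2 difference of -2.15 (SE 0.29, adjusted p = 2.16e-05). Gas5, a snoRNA host whose transcript begins with the sequence that also starts ribosomal protein mRNAs, had 115, 68 and 134 CPM in heavy, against 386, 314 and 752 CPM in light, a difference of -2.19 (SE 0.33, adjusted p = 5.86e-05). Snhg7 (-2.02), Snhg6 (-2.03) and Pvt1 (-1.85), a transcript from beside Myc, were also lower. The nuclear RNA Malat1 had 11.8, 9.15 and 5.92 CPM in heavy, against 40.4, 22.9 and 20 CPM in light, a difference of -1.64 (SE 0.32, adjusted p = 0.000513). Snhg8, Gas5 and Malat1, picked by p-value or from their values, did not overlap between the fractions. The 2 members called higher, named after their values were seen, were the catalytic RNAs Rmrp and Rpph1, at 6.94 and 6.65 CPM in heavy 2 and under 0.5 CPM in the other libraries. Without heavy 2, or without number 2, no member was called higher and 20 were called lower.

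Ribosomal protein mRNAs were on the light side throughout. Of 79 tested, 74 were called lower in heavy, none was called higher and all 79 had a negative log2 difference, with a median of -1.38. Leaving out a library or number left 55 to 74 called lower. Their share of counts was 2.08%, 1.17% and 2.05% in heavy, against 4.11%, 3.43% and 5.93% in light. Rps25, of the small subunit, had 27.5, 19.6 and 24.1 CPM in heavy, against 88.9, 77.9 and 109 CPM in light, a difference of -1.95 (SE 0.21, adjusted p = 2.68e-06). Rps12 had 12.2, 6.91 and 13.2 CPM in heavy, against 43.6, 33.5 and 55.6 CPM in light (-2.04, SE 0.27, adjusted p = 2.16e-05), and Rpl38, of the large subunit, had 3.56, 1.74 and 4.56 CPM in heavy, against 15.2, 10.8 and 16.4 CPM in light (-2.10, SE 0.29, adjusted p = 3.49e-05). Rps7 differed by -1.67. The median was low for their length too: the 38 members with over 150 and up to 300 codons had a median of -1.12 and 35 called lower, beside a median of -0.14 over all 2537 genes of that length. Ribosomal protein genes have many near-identical pseudogenes, and how shared reads were counted is not given in the sources used here.

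Other mRNAs that start with the 5′ terminal oligopyrimidine (TOP) tract, through which mTOR controls the making of the translation machinery, leaned the same way. Of 19 tested, 11 were called lower and none higher, with a median of -0.69. Tpt1, the translationally controlled tumour protein, had 177, 90.8 and 179 CPM in heavy, against 288, 311 and 518 CPM in light, a log2 difference of -1.32 (SE 0.32, adjusted p = 0.00315). Naca, a chaperone of nascent chains, had 198, 121 and 167 CPM in heavy, against 352, 248 and 428 CPM in light (-1.08, SE 0.21, adjusted p = 0.000573). Pabpc1, the cytoplasmic poly(A)-binding protein, is long for this group at 636 codons and had 2001, 1430.0 and 1377 CPM in heavy, against 3347, 2626 and 3019 CPM in light (-0.90, SE 0.21, adjusted p = 0.00239). The call of Eef1b2 (-1.03), an elongation factor subunit, was lost without heavy 2 (adjusted p = 0.0531), light 3 (0.0689) or number 3 (0.0948). Eef2, the factor that moves the ribosome along (chosen after its values were seen), had 9812, 8768 and 9009 CPM in heavy, against 10111, 13491 and 17346 CPM in light, a difference of -0.57 (SE 0.22, adjusted p = 0.047). Its call was lost without heavy 1 (adjusted p = 0.078), heavy 2 (0.124), heavy 3 (0.0963), light 2 (0.0826), light 3 (0.247), number 2 (0.165) or number 3 (0.322), and with a replicate block within arm (0.0502). Heavy and light did not overlap in Tpt1, Naca, Pabpc1 or Eef2, which were picked by p-value or from their values. The count of the list called lower was 4 without heavy 2, 7 without heavy 3, 3 without light 3 (where 1 was called higher), 6 without number 2 and 3 without number 3.

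Genes of the respiratory chain split by the size of the subunit. Of 75 tested, 16 were called higher in heavy and 27 lower, with a median of -0.25. Atp5b, the catalytic beta subunit of ATP synthase, had 4689.7, 4874 and 3638 CPM in heavy, against 1318, 1744 and 1307 CPM in light, a log2 difference of 1.60 (SE 0.20, adjusted p = 1.38e-05). Uqcrc1, a core protein of complex III, had 499.8, 618 and 555 CPM in heavy, against 201, 229.9 and 198 CPM in light (1.41, SE 0.13, adjusted p = 1.18e-06), and Ndufv1, the subunit of complex I that takes electrons from NADH, had 287, 371 and 294 CPM in heavy, against 109, 149.5 and 107 CPM in light (1.38, SE 0.15, adjusted p = 4.23e-06). All 3, taken by p-value, lay higher in each heavy library than in any light one, which that choice made likely. By contrast the small accessory subunits Uqcr10 (64 codons) and Atp5l (103 codons), chosen after their values were seen, differed by -2.05 (adjusted p = 0.00021) and -2.30 (adjusted p = 0.00065). Of the 41 members with up to 150 codons, 26 were called lower and none higher, and of the 12 with more than 300, 10 were called higher and none lower. The share of short members called lower was near that of all genes of that length, 560 of 898. Over all 9423 genes with more than 300 codons, 3197 were called higher and 910 lower.

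Proteins of the mitochondrial ribosome showed the same split with a smaller spread. Of 76 tested, 18 were called higher and 11 lower, and the median was 0.17 with TMM and -0.06 with upper-quartile factors, which also moved the counts to 12 and 17. With TMM the share called higher was near the 24.3% of all tested genes. Mrps27 (415 codons) had 84.8, 60.6 and 68.1 CPM in heavy, against 30, 27.8 and 32.3 CPM in light, a log2 difference of 1.24 (SE 0.19, adjusted p = 6.07e-05), while Mrps21 (87 codons) had 45.5, 21.5 and 51.9 CPM in heavy, against 142, 94 and 193 CPM in light, a difference of -1.85 (SE 0.30, adjusted p = 0.00012). Of the 23 members with up to 150 codons, 7 were called lower and none higher, with a median of -0.39. Over all 898 genes of that length, 560 were called lower and 4 higher, with a median of -1.0. Of the 15 members with more than 300 codons, 8 were called higher and none lower, with a median of 0.50. Over all 9423 genes of that length, 3197 were called higher and 910 lower, with a median of 0.30. Of the 7 mRNAs tested that are made and translated inside mitochondria, all had negative values and 2 were called lower, ND6 (-1.41) and ND5 (-1.01). Neither was called without heavy 3 (adjusted p = 0.0537 for ND6 and 0.11 for ND5) or number 2 (0.07 and 0.104), and 1 was called without light 1, light 2 or number 1.

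Proteasome subunits were on the heavy side throughout. Of 34 tested, 33 were called higher and none lower, with a median of 1.13, and leaving out a library or number left 26 to 31. Psmd2, a large subunit of the regulatory base, had 724, 705 and 493 CPM in heavy, against 188, 197 and 171 CPM in light, a log2 difference of 1.79 (SE 0.18, adjusted p = 1.61e-06). Psmd3, of the regulatory lid, had 648, 606 and 628 CPM in heavy, against 252, 253 and 237 CPM in light (1.34, SE 0.13, adjusted p = 1.44e-06). Psmb5, the subunit with chymotrypsin-like activity, had 62.8, 45.3 and 48.8 CPM in heavy, against 18.8, 20.3 and 13.8 CPM in light (1.57, SE 0.17, adjusted p = 2.83e-06), and Psmb4 differed by 1.32. None of the 4, taken by p-value, overlapped between the fractions, which that choice made likely. Of the 17 members with over 150 and up to 300 codons, 16 were called higher, with a median of 1.07, where all genes of that length had a median of -0.14.

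Glycolytic enzymes likewise lay in heavy polysomes. Of 19 tested, 14 were called higher and none lower, with a median of 1.15. Besides Pfkl, the platelet-type phosphofructokinase Pfkp had 149, 167 and 109.9 CPM in heavy, against 38.1, 33.1 and 30.8 CPM in light, a log2 difference of 2.06 (SE 0.23, adjusted p = 4.1e-06). Hk1, which traps glucose in the cell by phosphorylating it, had 435, 654 and 452 CPM in heavy, against 139, 186 and 158 CPM in light (1.67, SE 0.19, adjusted p = 5.98e-06). Pkm, the pyruvate kinase of dividing cells, had 5254, 4171 and 3239.9 CPM in heavy, against 1301, 1354 and 1152 CPM in light (1.73, SE 0.23, adjusted p = 2.19e-05). In cholesterol synthesis 6 of 24 were called higher and none lower, with a median of 0.51. The share called higher was near the 24.3% of all tested genes. Of the 17 members with more than 300 codons, 4 were called higher, beside 3197 of all 9423 genes of that length. The count called higher was 3 without heavy 3 (where 1 was called lower), 3 without light 1, 2 without light 2 or number 1, and 10 without light 3. With a replicate block within arm 11 were called higher and 1 lower, and with upper-quartile factors or total counts 3 were called higher. Dhcr7, the last enzyme of the pathway, differed by 0.81 (SE 0.19, adjusted p = 0.00198).

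Large matrix proteins and chaperones of the endoplasmic reticulum were mostly higher in heavy polysomes. Of 25 tested collagens and large matrix proteins, 15 were called higher and none lower, with a median of 1.13. Besides Col18a1, Col16a1 had 67.9, 100.3 and 64.7 CPM in heavy, against 26.8, 23.8 and 22.9 CPM in light, a log2 difference of 1.66 (SE 0.23, adjusted p = 3.37e-05). Hspg2, the basement membrane proteoglycan perlecan, had 196, 362 and 209 CPM in heavy, against 63.7, 133 and 68.8 CPM in light (1.53, SE 0.30, adjusted p = 0.000532), and heavy 2 was its highest library. Among 16 chaperones of the endoplasmic reticulum, 10 were called higher and 1 lower, with a median of 0.92. Pdia6, a disulfide isomerase, had 411, 447 and 386 CPM in heavy, against 95.5, 122 and 108 CPM in light (1.93, SE 0.17, adjusted p = 9.12e-07), and Hyou1, Pdia4 and Pdia3 differed by 1.43, 1.36 and 1.53.

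The machinery that brings proteins into the endoplasmic reticulum and glycosylates them divided again by size. Of 26 tested, 8 were called higher and 10 lower. Rpn1, a large subunit of oligosaccharyltransferase, had 259, 271 and 168 CPM in heavy, against 76.9, 88.9 and 68.8 CPM in light, a log2 difference of 1.57 (SE 0.24, adjusted p = 6.25e-05), and its partners Rpn2 and Ddost differed by 1.46 and 1.45. The small subunit Ost4 of the same complex differed by -1.96, and Srp19, of the signal recognition particle, by -1.50 (SE 0.25, adjusted p = 0.000131). Of the 11 members with up to 150 codons, 8 were called lower and none higher, and of the 9 with more than 300, 6 were called higher and none lower. Over all genes of those lengths, 560 of 898 were called lower and 3197 of 9423 higher.

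mRNAs of giant proteins of the cytoskeleton, motors and ubiquitin ligases leaned to the heavy side. Of the 35 tested, 34 have more than 1200 codons in the annotation, and Ahnak is listed there with 150. Of the 35, 20 were called higher and none lower, with a median of 0.79, beside 0.47 over all genes with more than 1200 codons. Ubr4 (5180 codons), a ubiquitin ligase of the N-degron pathway, had 253, 443 and 275 CPM in heavy, against 70.6, 123 and 81.3 CPM in light, a log2 difference of 1.82 (SE 0.27, adjusted p = 5.02e-05). Lrp1, an endocytic receptor, differed by 1.44, Huwe1, a ubiquitin ligase, by 1.36, and Dync1h1, the heavy chain of cytoplasmic dynein, by 1.32. Heavy 2 was the highest library for all 4. The count called higher was 8, with 1 called lower, without heavy 2, and 13 without light 1 or number 1, or with upper-quartile factors or total counts. Without number 2, which leaves out light 2 as well, 15 were called higher and 0 lower, with a median of 0.73.

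**Figure D4:**
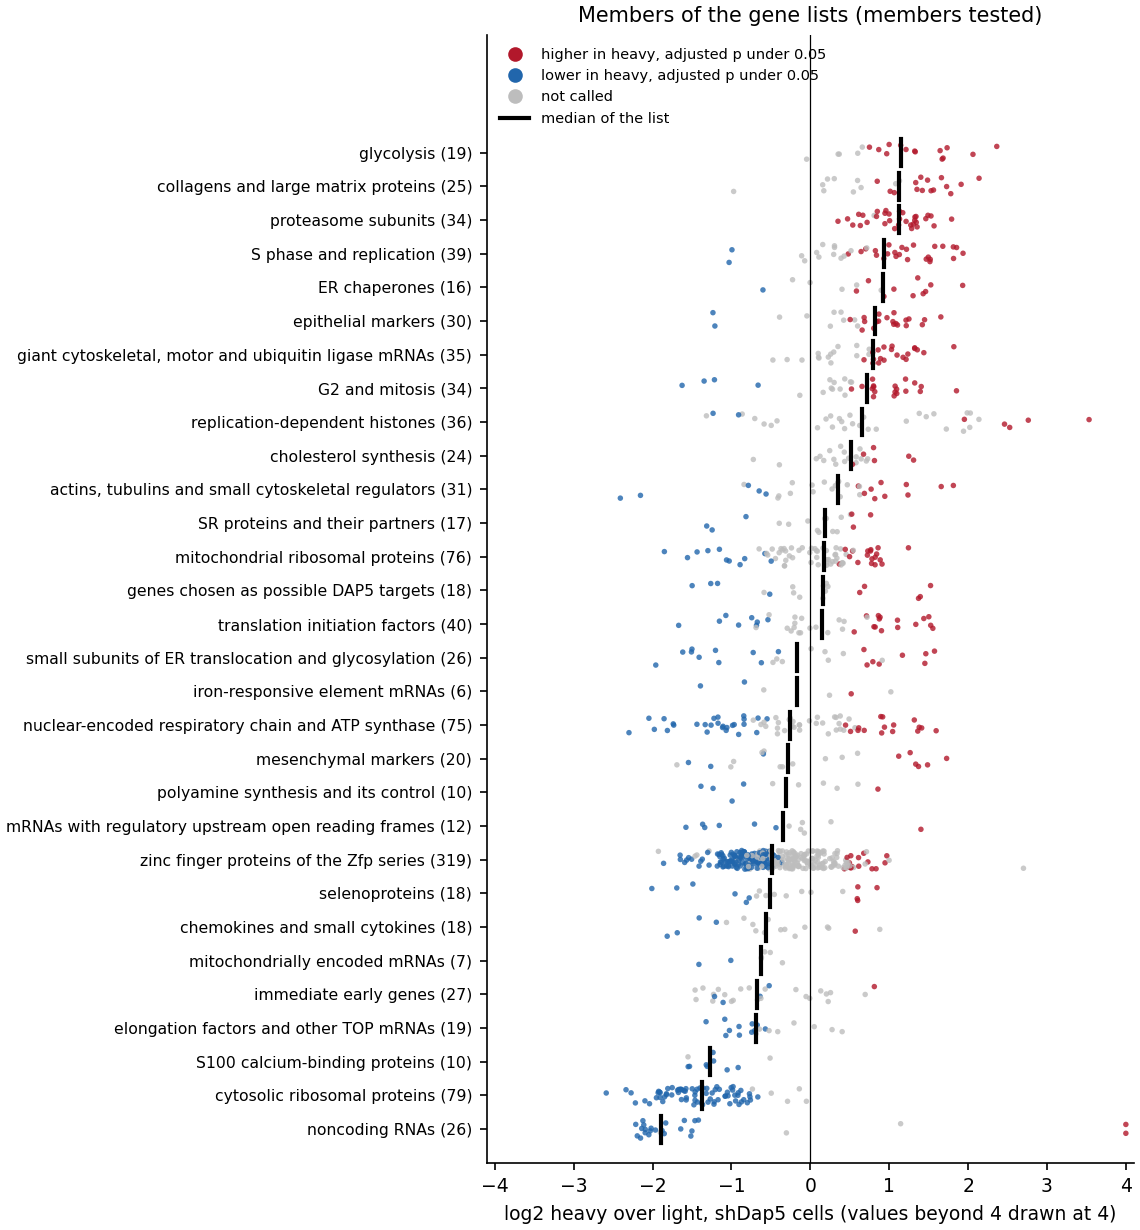
Log2 difference of heavy over light in shDap5 cells for the tested members of 30 gene lists (1 point a gene, with the number tested in brackets), coloured by call, with a black bar at each list's median. Glycolysis, matrix proteins and proteasome subunits have the highest medians (1.15, 1.13 and 1.13), and noncoding RNAs and cytosolic ribosomal proteins the lowest (-1.89 and -1.38).

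Genes of the cell cycle were mostly on the heavy side. Of 39 tested genes of S phase, 25 were called higher and 2 lower, with a median of 0.93. Lig1, which joins DNA fragments on the lagging strand, had 232, 234 and 171 CPM in heavy, against 63.2, 55.8 and 47.4 CPM in light, a log2 difference of 1.94 (SE 0.21, adjusted p = 3.2e-06). Pold1, the catalytic subunit of DNA polymerase delta, had 131, 158 and 116 CPM in heavy, against 42.7, 35.1 and 33.9 CPM in light (1.85, SE 0.18, adjusted p = 1.44e-06), and the helicase subunits Mcm2 and Mcm7 differed by 1.82 and 1.47. Of 34 genes of G2 and mitosis, 19 were called higher and 4 lower, with a median of 0.72. Cdc20, an activator of the anaphase-promoting complex, had 290.2, 322 and 277 CPM in heavy, against 88.3, 99.7 and 58.1 CPM in light (1.85, SE 0.17, adjusted p = 1.12e-06). Plk1 and Kif2c, a mitotic kinase and a microtubule depolymerase, differed by 1.32 and 1.21. The 4 called lower, named after their values were seen, were Cks2 (-1.63), Cenpa (-1.35), Cks1b (-1.21) and Birc5 (-0.66), which are also the 4 members with up to 150 codons.

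Translation initiation factors spanned the gradient. Of 40 tested, 15 were called higher and 8 lower, with a median of 0.15 that was -0.09 with upper-quartile factors. Eif3c, a core subunit of the factor eIF3, had 745, 889.6 and 479.5 CPM in heavy, against 231, 278 and 210.2 CPM in light, a log2 difference of 1.55 (SE 0.23, adjusted p = 6.57e-05). Eif4a3, the RNA helicase of the exon junction complex, had 276, 197 and 217 CPM in heavy, against 91.8, 60.9 and 90.9 CPM in light (1.50, SE 0.22, adjusted p = 4.34e-05), and Eif2b2, of the exchange factor for eIF2, had 184, 152 and 176 CPM in heavy, against 84.8, 89.2 and 105 CPM in light (0.87, SE 0.13, adjusted p = 6.08e-05). Eif1, which guards the choice of start codon, had 294, 157 and 323 CPM in heavy, against 949.7, 593 and 917 CPM in light (-1.67, SE 0.26, adjusted p = 7.78e-05). The relatives of Eif4g2 with a site for eIF4E, Eif4g1 and Eif4g3 (chosen after their values were seen), differed by 1.34 (adjusted p = 0.000291) and 0.81 (adjusted p = 0.00107), beside -0.24 for Eif4g2 itself. The count called lower was 5 without heavy 2 or without light 3.

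In a list of 18 genes picked as possible DAP5 targets or as regulators of mesenchymal change, 5 were called higher and 4 lower. Both shares were near those of all tested genes, of which 24.3% were called higher and 20.2% lower. The median of the list was 0.16 (-0.07 with upper-quartile factors and -0.09 without heavy 2). Cdk1, the mitotic kinase whose human mRNA has been reported to need DAP5, had 606, 465 and 530.2 CPM in heavy, against 212, 202 and 196 CPM in light, a log2 difference of 1.39 (SE 0.19, adjusted p = 2.07e-05). Prmt1, an arginine methyltransferase, had 577, 439 and 413 CPM in heavy, against 180.4, 176 and 141 CPM in light (1.52, SE 0.19, adjusted p = 1.05e-05), and Itgb1, the beta 1 integrin, had 1159.7, 1529 and 772 CPM in heavy, against 461, 507 and 369 CPM in light (1.37, SE 0.30, adjusted p = 0.00141). Hmgn3, a nucleosome-binding protein of 99 codons, had 25.3, 17.6 and 31.1 CPM in heavy, against 73.4, 56.9 and 78.8 CPM in light (-1.50, SE 0.20, adjusted p = 1.91e-05). None of these 4 overlapped between the fractions, which their choice by p-value made likely. In NSi cells the same genes stood at 1.63 for Cdk1, 1.56 for Prmt1, 1.60 for Itgb1 and -1.74 for Hmgn3. The count called higher was 3 without heavy 2 or light 1, and the count called lower was 2 without heavy 1, heavy 3, light 1 or number 3 and 1 without number 1. With upper-quartile factors 3 were called higher and 6 lower, and with total counts 3 and 4.

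Markers of the epithelial state were mostly higher in heavy polysomes, with 20 of 30 called higher and 2 lower and a median of 0.82. Jup, the junction protein plakoglobin, had 553, 595 and 628 CPM in heavy, against 166, 194 and 204 CPM in light, a log2 difference of 1.65 (SE 0.16, adjusted p = 1.18e-06). Krt7 had 4302, 4076 and 3667 CPM in heavy, against 1432, 1938 and 1693 CPM in light (1.25, SE 0.18, adjusted p = 4.41e-05), and Krt19, another keratin, differed by 1.11. Krt7 and Jup were abundant in all 6 libraries, as the mammary carcinoma label has it. Mesenchymal markers were mixed, with 6 of 20 called higher and 3 lower and a median of -0.29 that ran from -0.42 (without light 3) to 0.03 (without number 1) on leaving out a library or number, and the count called lower was 1 without number 1. Sparc, a secreted matrix-binding protein, had 136, 192 and 177 CPM in heavy, against 52.3, 76.5 and 81 CPM in light (1.27, SE 0.19, adjusted p = 5.25e-05).

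Actins, tubulins and their regulators divided by size as well, though few were short. Of 31 tested, 10 were called higher and 5 lower, beside 24.3% and 20.2% of all tested genes. Of the 4 members with up to 150 codons, 3 were called lower and 0 higher. Of the 10 with over 150 and up to 300, 1 was called higher and 2 lower. Of the 17 with more than 300, 9 were called higher and 0 lower. Over all genes of the shortest and longest of these classes, 560 of 898 were called lower and 3197 of 9423 higher. Tubb4b, a beta tubulin, had 518, 456 and 434 CPM in heavy, against 139, 139 and 122 CPM in light, a log2 difference of 1.81 (SE 0.19, adjusted p = 2.68e-06), and Msn, which ties actin to the membrane, had 2927, 3144 and 1870.2 CPM in heavy, against 908, 826 and 779.8 CPM in light (1.66, SE 0.24, adjusted p = 5.32e-05). Tmsb10, a second thymosin of 44 codons, had 71.1, 35.1 and 74.1 CPM in heavy, against 287, 194 and 322 CPM in light (-2.15, SE 0.28, adjusted p = 1.53e-05), beside -2.41 for Tmsb4x. The count called lower was 3 without heavy 1, heavy 2, light 1, light 3, number 1 or number 2.

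S100 proteins, small calcium-binding proteins, were mostly lower in heavy polysomes. Of 10 tested S100 proteins, 8 were called lower and none higher, with a median of -1.27. The 9 members with up to 150 codons had 7 called lower and a median of -1.23. Over all 898 genes of that length, 560 were called lower, with a median of -1.0. S100a6 had 3718, 2896 and 6067 CPM in heavy, against 10018, 8770.5 and 11012 CPM in light, a log2 difference of -1.23 (SE 0.26, adjusted p = 0.00101), and S100a10, the partner of annexin A2, had 689, 411 and 881 CPM in heavy, against 1840.0, 1214 and 1846 CPM in light (-1.31, SE 0.30, adjusted p = 0.00192). S100a13 and S100a8 differed by -1.53 and -1.55. The count called lower was 5 without heavy 2 or number 1. Of 18 tested chemokines and small cytokines, 4 were called lower, a share near that of all genes, and 1 higher, with a median of -0.56. Cxcl1, a chemokine that attracts neutrophils, had 178, 56.9 and 185 CPM in heavy, against 593, 199.9 and 556 CPM in light, a difference of -1.69 (SE 0.42, adjusted p = 0.00352). Light 2 lay close to the highest heavy library. The count of chemokines called lower was 1 without heavy 2, 2 without number 1 and 6 without number 3, and none was called higher without light 1, number 1 or number 3. With a replicate block within arm 8 were called lower and 2 higher, with DESeq2 7 and 1, with upper-quartile factors 8 and 0, and with total counts 7 and 0.

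mRNAs under well-known translational control took both sides. Short upstream reading frames hold back the main frame of Atf4, the transcription factor of the integrated stress response, and Atf4 had 318, 206 and 307 CPM in heavy, against 748, 523 and 829 CPM in light, a log2 difference of -1.34 (SE 0.21, adjusted p = 0.000106). Ddit3, a target of Atf4, had 59.9, 93.4 and 52.5 CPM in heavy, against 166, 295 and 152 CPM in light (-1.58, SE 0.43, adjusted p = 0.00706). Atf5, a relative of Atf4, had 107, 100.1 and 115 CPM in heavy, against 223, 231 and 263 CPM in light (-1.15, SE 0.32, adjusted p = 0.00792). Ppp1r15a, which brings the phosphatase to eIF2, had 53.8, 24.4 and 73.3 CPM in heavy, against 149, 84.6 and 156 CPM in light (-1.36, SE 0.35, adjusted p = 0.00444). In these 4 genes each heavy library lay below each light one, though Ppp1r15a light 2 was near heavy 3. Eprs, the glutamyl-prolyl-tRNA synthetase, stood on the other side with 411, 646 and 292 CPM in heavy, against 170.5, 194 and 146 CPM in light (1.40, SE 0.32, adjusted p = 0.00183), and heavy 2 was its highest library. Of the 12 tested genes with such frames, 6 were called lower and 1 higher, with a median of -0.35, and 4 were called lower without heavy 2.

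Control by polyamines and by iron gave small lists with few calls. Sat1, which acetylates spermidine and spermine, had 66.5, 64.7 and 83.4 CPM in heavy, against 161, 158 and 185 CPM in light, a log2 difference of -1.23 (SE 0.19, adjusted p = 9.77e-05). Odc1, the first enzyme of polyamine synthesis, had 297, 208 and 251 CPM in heavy, against 512, 386 and 459.8 CPM in light (-0.84, SE 0.19, adjusted p = 0.00173). Oaz1 and Oaz2, the antizymes made by a ribosomal frameshift, differed by -0.99 and -1.39. Their calls were lost without light 3 (adjusted p = 0.0709 and 0.0582), and that of Oaz1 also without heavy 1 (0.0655), heavy 2 (0.0889), number 1 (0.111) or number 2 (0.069). Over 10 tested polyamine genes, 4 were called lower and 1 higher. Without light 3, 2 were called lower, and without heavy 2, heavy 3 or light 1, 2 were called higher. With a replicate block within arm 5 were called lower and 2 higher. Fth1, the ferritin heavy chain whose 5′ UTR carries an iron-responsive element, had 3739.6, 2425 and 4984 CPM in heavy, against 8722, 5684 and 14859 CPM in light, a difference of -1.39 (SE 0.39, adjusted p = 0.00764). The call was lost without light 3 (adjusted p = 0.0628), the highest library. Of the 6 tested mRNAs with such elements, 2 were called lower and 1 higher, and leaving out a library or number gave 0 to 2 lower and 0 to 3 higher. With upper-quartile factors or total counts 2 were called lower and 0 higher.

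The zinc finger genes of the Zfp series leaned to the light side although most have long coding sequences. Of 319 tested, 131 were called lower and 16 higher, with a median of -0.48. Of the 295 members with more than 300 codons, 119 were called lower and 16 higher, beside 910 lower and 3197 higher among all 9423 genes of that length. Zfp560 (754 codons) had 5.24, 4 and 6.19 CPM in heavy, against 17.2, 11.8 and 19.5 CPM in light, a log2 difference of -1.65 (SE 0.20, adjusted p = 8.55e-06). Zfp810 had 4.54, 5.48 and 6.24 CPM in heavy, against 12.3, 13.2 and 17.9 CPM in light (-1.41, SE 0.19, adjusted p = 2.75e-05), and Zfp869 had 35, 33.2 and 32 CPM in heavy, against 67.2, 56.5 and 57.6 CPM in light (-0.86, SE 0.13, adjusted p = 5e-05). Zfp316 was among those called higher, with 39.9, 41.6 and 38.1 CPM in heavy, against 19.6, 25.2 and 17.2 CPM in light (0.95, SE 0.14, adjusted p = 5.77e-05). The 4 genes did not overlap between the fractions, which their choice by p-value made likely. Without number 1 the counts were 69 lower and 11 higher, with upper-quartile factors 172 and 7, and with total counts 160 and 7. Members of this family share repeated finger sequences, so shared reads are uncertain.

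Several other regulatory groups held few calls. Of 17 tested splicing factors of the SR family and their partners, 3 were called higher and 3 lower. Clk1, a kinase of SR proteins, had 60.3, 39.4 and 60.4 CPM in heavy, against 145, 107 and 146 CPM in light (-1.31, SE 0.19, adjusted p = 4.76e-05). Its relative Clk4 had 32.3, 23.9 and 35.9 CPM in heavy, against 74.2, 56.1 and 87.9 CPM in light (-1.24, SE 0.18, adjusted p = 5.32e-05). The count called higher was 1 without heavy 1, light 2 or number 1 and 0 without number 2, or with upper-quartile factors or total counts. Of 27 immediate early genes, 4 were called lower and 1 higher, with a median of -0.67. Btg1, an antiproliferative partner of the deadenylase, had 228, 191 and 277 CPM in heavy, against 496, 499 and 620.3 CPM in light, a log2 difference of -1.21 (SE 0.16, adjusted p = 1.76e-05). The count of immediate early genes called lower was 2 without heavy 2 or light 1, 8 without light 2 and 1 without number 1, and none was called higher without heavy 2 or light 3. With a replicate block within arm 9 were called lower and 1 higher, and with upper-quartile factors or total counts 5 and 0. Of 18 selenoproteins, which read a stop codon as selenocysteine, 6 were called lower and 4 higher, and 3 lower without number 2. With upper-quartile factors or total counts 9 were called lower and 2 higher. Sepw1 (88 codons) had 173, 79.7 and 175 CPM in heavy, against 516, 346 and 858 CPM in light (-2.01, SE 0.39, adjusted p = 0.000605), and Gpx1, a glutathione peroxidase, had 546, 379 and 805 CPM in heavy, against 1746, 1333 and 1778 CPM in light (-1.49, SE 0.26, adjusted p = 0.000253).

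The values of histone mRNAs turned on heavy 2. Replication-dependent histone mRNAs end in a stem-loop and not in a poly(A) tail, and in these polyA-selected libraries they made up 0.003% to 0.0101% of counts in heavy, against 0.0058% to 0.0093% in light. Of 36 tested, 5 were called higher and 2 lower, with a median of 0.65. Without heavy 2 none was called higher and 4 were called lower, with a median of -0.78. The count called higher was 9 without heavy 1, 10 without heavy 3, 2 without any 1 light library and 0 without number 2. With a replicate block within arm 1 was called higher and 3 lower, with DESeq2 2 and 5, with upper-quartile factors 3 and 5, and with total counts 5 and 5. Hist1h1e had 0.307, 12.4 and 0.416 CPM in heavy, against 0.486, 0.526 and 0.922 CPM in light, so its high value is in heavy 2. Hist1h2bc, one of the 2 called lower, had 6.9, 5.9 and 12.5 CPM in heavy, against 19.5, 13.3 and 26.8 CPM in light, a log2 difference of -1.23 (SE 0.28, adjusted p = 0.0019) with no overlap. In NSi cells the list had a median of -1.21, with 8 called lower and none higher.

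Most genes called in knockdown cells were also called in control cells. In NSi, 7930 genes (52.6%) were called between heavy and light, 4065 higher (27.0%) and 3865 lower (25.6%). Of the genes called higher in shDap5, 3464 were called higher in NSi too, which is 94.5% of the shDap5 list and 85.2% of the NSi list. Of those called lower, 2761 were shared, 90.8% of the shDap5 list and 71.4% of the NSi list, and 0 genes were called in opposite directions. Across all 15072 genes Pearson's r between the log2 differences of the arms was 0.86, a description, since genes are not independent replicates. The standard deviation of the log2 differences was 0.91 in shDap5 and 1.04 in NSi. In the test of the difference between the arms no gene was called (edgeR quasi-likelihood, smallest adjusted p = 1), with 181 genes at an unadjusted p under 0.05, and DESeq2 also called 0, with 223 at that level. A failure to pass does not show that the arms were alike.

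The genes with the smallest p-values for that difference did not pass and are given as values. Dynlt3, a light chain of dynein, had 69.1, 70.1 and 74.1 CPM in heavy, against 202, 198 and 214 CPM in light in shDap5, and 42.2, 47.7 and 46.4 CPM in heavy, against 223, 212 and 181 CPM in light in NSi. Its log2 difference was -1.52 in shDap5 and -2.18 in NSi, a gap of 0.65 (SE 0.17, unadjusted p = 0.00138). The gap was 0.78 (SE 0.24, unadjusted p = 0.00426) for Ggact, 0.69 (SE 0.23, unadjusted p = 0.00678) for Zfp760, 0.53 (SE 0.19, unadjusted p = 0.0115) for Pcnp and 0.54 (SE 0.21, unadjusted p = 0.0211) for Dynll2, another dynein light chain. In all 5 the mRNA was lower in heavy in both arms and less so in shDap5. On the other side Amacr, a racemase of branched fatty acids, had 7.18, 6.39 and 6.38 CPM in heavy, against 2.46, 2.97 and 2.18 CPM in light in shDap5, and 10.8, 10.1 and 9.88 CPM in heavy, against 2.41, 2.85 and 2.12 CPM in light in NSi, a gap of -0.68 (SE 0.28, unadjusted p = 0.0286). The gap was -0.53 (SE 0.19, unadjusted p = 0.0127) for Alg1, a mannosyltransferase, -0.53 (SE 0.19, unadjusted p = 0.014) for Plod3, a lysyl hydroxylase, and -0.48 (SE 0.19, unadjusted p = 0.0208) for Aga, a lysosomal amidase. Zc3h7b stood at 0.15 in shDap5 and 0.65 in NSi. No adjusted p fell below 1 for these 10 genes.

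**Figure D5:**
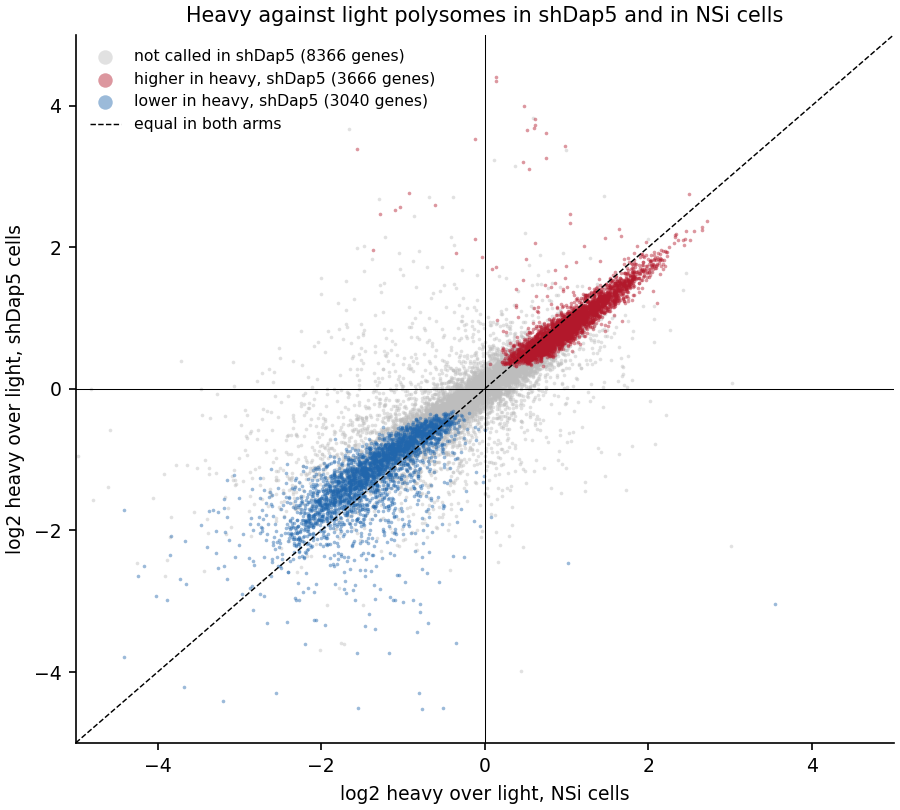
Log2 difference of heavy over light in shDap5 cells (vertical axis) against that in NSi cells (horizontal axis) for the tested genes, coloured by the call in shDap5, with a dashed line where the arms are equal and 13 genes outside the axes left out. Called genes lie along the dashed line, and the red points far above it include loci that are high in heavy 2 alone.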

How the data were processed

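Polyadenylated RNA was measured in 18 libraries. The authors deposited 1 table of raw counts by gene symbol for each library, made with Bowtie and mm9 per the submitters' processing notes. How reads were counted, and with which annotation and strand setting, is not given in the sources used here, and 27 symbols were written as dates. Counts were tested with edgeR 4.0.16 in R 4.3.3 (quasi-likelihood F test, TMM, filterByExpr at 10 counts, 15 in all libraries together), with 1 mean per group over all 18 libraries, 12 residual degrees of freedom and Benjamini-Hochberg adjustment over all genes tested. A difference is a log2 ratio of heavy over light with its standard error (SE). CPM values are TMM-scaled, and 3 counts, the most that a count of 0 allows, come to 0.048 to 0.102 CPM in the 6 libraries (counting error only).

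Replicate numbers paired the libraries. Deviations of heavy and light libraries of 1 number from their group means correlated across 10308 genes. The correlations were 0.75, 0.71 and 0.66 in shDap5 and 0.52, 0.73 and 0.58 in NSi. All other pairings in both arms were negative, which centring on means of 3 libraries favours once those are positive. Between the arms, heavy libraries of 1 number correlated at 0.53, 0.79 and 0.83, and other pairings at -0.75 to 0.01. The fit without this block stayed the main one. Within the heavy and light groups of shDap5, any pair of replicates differed by more than sampling noise (chi-square of 102 or more for each degree of freedom).

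The members and the gene lists were chosen with earlier results of these data known. Named are Eif4g2, the 10 largest rises and 10 largest falls among called genes whose mean reached 5 CPM and whose fractions did not overlap, the 5 smallest p-values each way in the difference between arms, and up to 4 members of each list by p-value with a mean of at least 1 CPM, not all of which are described. Where another gene is named, the text states that this was done with its values known, except for Cdk8, Lars2, Mir6236 and Rn7sk, which were likewise picked from their values. Coding lengths are from GENCODE M21 (GRCm38), used for names and lengths only, in place of RefSeq proteins, which were not used here. Of the 35976 symbols, 26737 matched directly and 513 by a synonym. Tests were tried on simulated data. Alternatives were DESeq2 1.42.0, other scalings, no filter, fewer libraries, replicate blocks and leaving out each library or number.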

Additional observations from a re-analysis of the deposited data

How the results depend on the processing

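Genes called between shDap5 heavy and light numbered 6706, and stayed within 1.5 times of that in DESeq2, under the other scalings, with no filter, with only the libraries compared, with the replicate block (7746, or 7537 within arm and 8691 on the 6 libraries) and without each library or number (4608 to 6763). With upper-quartile factors 2389 were called higher. Leaving out a library or number gave 1941 to 3065 called lower, the lowest without number 1. With a minimum of 2-fold the counts were 3127 in all, 1273 higher and 1854 lower. Of the 6706 genes, the number called again was 4554 to 6677 across these alternatives other than the 2-fold minimum, each in the same direction. The difference between the arms called 0 genes in every alternative that could be run, with 77 to 438 at an unadjusted p under 0.05. The replicate block moved no count over all genes by more than 1.5 times. Within arm it did so in 6 lists, the chemokines, cholesterol synthesis, immediate early genes, histones, polyamine genes and macrophage markers (2 called higher, against 1), and among the genes named it ended the calls of Eef2 and of loci that were high in heavy 2.

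Medians by coding length moved with scaling and with heavy 2. With total counts alone they were -0.34 for over 150 and up to 300 codons, 0 for up to 600, 0.17 for up to 1200 and 0.27 for longer. Only genes with at least 5 CPM gave 0.30 for over 300 and up to 600 codons and 0.46 for over 600 and up to 1200. Without heavy 2 the values were 0.27 for over 600 and up to 1200 and 0.28 for longer. The order of the classes stayed. The cause was not tested.

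Leaving out a library or number gave log2 differences of -0.71 to 4.18 for Hist1h1b, -0.92 to 3.65 for Hist1h1e, -0.78 to 4.56 for Cdk8, -0.50 to 4.88 for Lars2, -0.83 to 5.18 for Mir6236 and -1.15 to 3.48 for Rn7sk, and those 6 were negative without heavy 2 or number 2. The gap between arms of Eif4g2, which did not pass, was -0.052 to 0.35. Zc3h7b, which was not called, stood at -0.086 with upper-quartile factors and -0.053 with total counts.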
